A study of Mus musculus with 11 samples.

Results

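The genes described here mark macrophages and related myeloid cells, the phagocytes of the thymus. They are 10 genes, Lyz2, Itgam, Csf1r, Adgre1, Cd68, Fcer1g, Tyrobp, C1qa, C1qb and Mpeg1, chosen by name from a list of myeloid genes and matched by symbol to the gene identifiers of the deposited table, which holds 54418 genes. All 10 were found. They were read in RNA-seq of untreated thymus cells from 3 triple knockout mice (Puma-/-p21-/-Zmat3-/-, TKO), 4 Zmat3-/- mice and 4 wt mice, which were young adults of 8 to 12 weeks. Zmat3 encodes an RNA binding protein, Puma (gene symbol Bbc3) a BH3-only activator of apoptosis and p21 (gene symbol Cdkn1a) an inhibitor of the cell cycle, and all are targets of TRP53. The deletions were not limited to thymocytes, so the phagocytes of a mutant mouse carry them too, and every TKO mouse shares the Zmat3 deletion with the Zmat3-/- mice. Each mouse gave 1 library, made from a mashed thymus without a sort that the study names, so RNA of phagocytes could enter it.

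Most cells of the thymus are thymocytes, the developing T cells, and most of them die there. Macrophages engulf the dying cells, aided by complement C1q and by receptors for the exposed membrane lipid phosphatidylserine. They degrade the engulfed cells in lysosomes, which contain lysozyme and proteases. Macrophages depend on the growth factor receptor CSF1R, and many of their surface receptors signal through the adaptors FCER1G and TYROBP. In bulk RNA, fewer cells of a type and less RNA per cell cannot be told apart.

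The libraries held 17669715 to 80207003 counts, with the extremes in TKO mice 2 and 3. Every library had at least 140 counts of each of the 10 genes. Thymocyte markers dominated as the label says: the 12 genes of a thymocyte list summed to 13010 to 16440 CPM (counts scaled to library size with TMM factors) in the 11 mice. The targeted transcripts were still counted in the mutant mice. Zmat3 stood at 9.81, 12.1, 27.2 and 27.4 CPM in wt mice 1 to 4, at 5.33 to 6.91 CPM in Zmat3-/- and at 7.50 to 8.13 CPM in TKO mice. In the TKO mice Bbc3 stood at 11.9 to 15.8 CPM (17.0 to 19.8 in wt) and Cdkn1a at 2.26 to 3.56 CPM (3.58 to 10.2 in wt). Wt mice 1 and 2 stood apart from the other libraries, with a median correlation of log2 CPM over genes of 0.921 and 0.945 with the other 10 mice, against 0.959 to 0.981 in the remaining mice. Xist, a transcript of the inactive X chromosome, was high (501 to 1498 CPM) in TKO mouse 1 and in mice 1 and 2 of the wt and Zmat3-/- groups, and at most 2.599 CPM in the other 6. The labels give no sex. The main comparisons of Zmat3-/- with wt mice are therefore also given without either pair of wt mice.

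To compare levels between genes, CPM were divided by the length of the merged exons in kilobases. Lyz2, which encodes the lysozyme of macrophages and neutrophils, was the highest at 96.8 ± 26.5 CPM per kilobase (SD over 11 mice). The complement genes C1qa and C1qb followed at 42.1 ± 16.8 and 37.8 ± 16.1 CPM per kilobase (SD), a difference smaller than their spread. Next came Tyrobp (24.1 ± 8.80), Mpeg1 (16.4 ± 4.93), Fcer1g (12.3 ± 4.28) and Cd68 (11.8 ± 3.27), each in CPM per kilobase with its SD, and the means of the last 3 lay within their spread. Adgre1 (3.47 ± 1.01), Csf1r (3.44 ± 0.873) and Itgam (2.19 ± 0.476 CPM per kilobase, SD) were the lowest. The levels of C1qb varied the most, 4.48-fold between the lowest and the highest mouse, and those of Itgam the least, 1.94-fold.

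The plot of levels by mouse shows that the wt mice fell into 2 pairs and that TKO mouse 3 stood below the other TKO mice. Before any comparison, the genes are described in the order of their roles, with their positions on GRCm38.

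**Figure D1:**
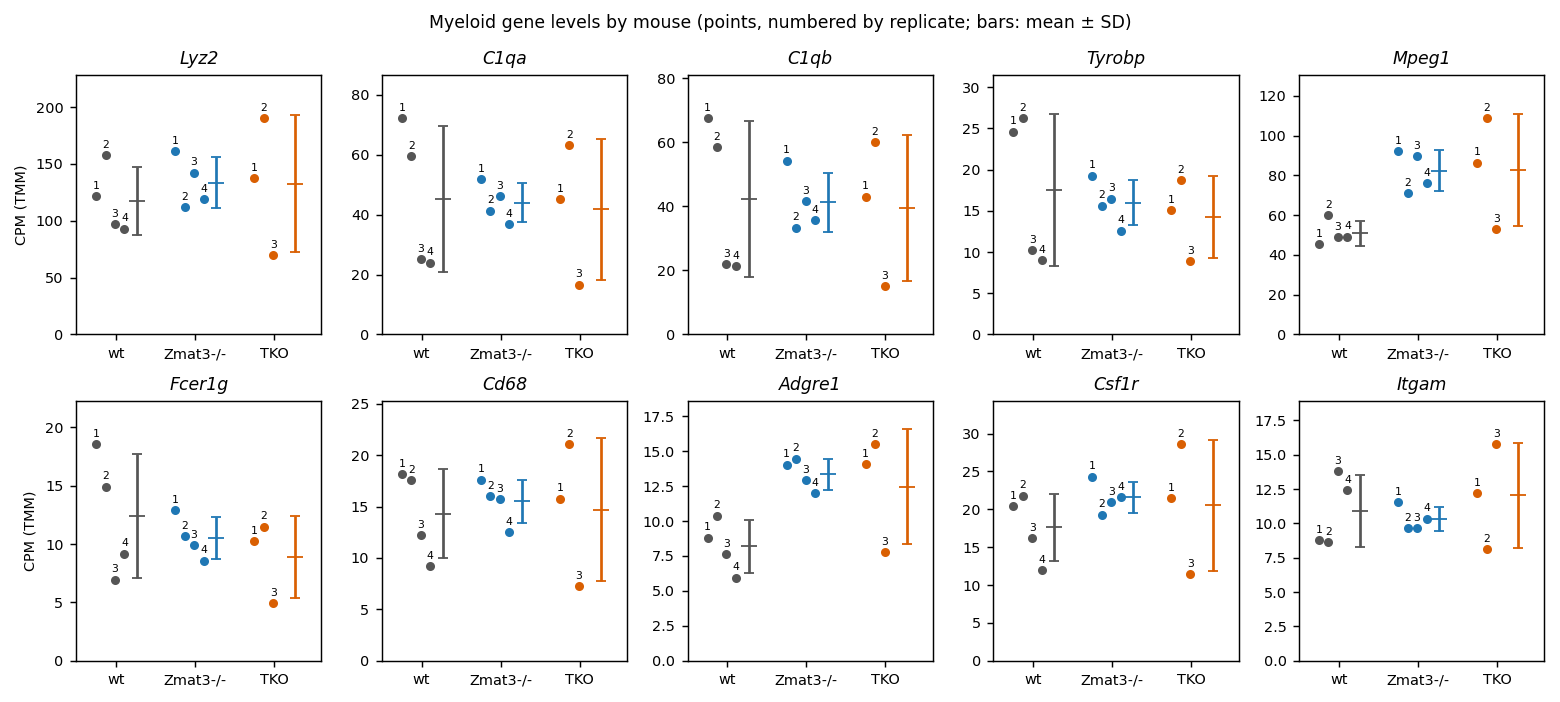
Levels in CPM (y axis, from 0, a scale for each gene) of the 10 myeloid genes in wt, Zmat3-/- and TKO mice, where each point is a mouse numbered by replicate and the bar at its right is the mean ± SD of the genotype. Wt mice 1 and 2 lie above wt mice 3 and 4 in 8 panels, below them in that of Itgam and around them in that of Mpeg1, and TKO mouse 3 is the lowest TKO mouse in each panel but that of Itgam.

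C1qa (ENSMUSG00000036887.5, chr4:136895917-136898803) and C1qb (ENSMUSG00000036905.8, chr4:136880129-136886187) lie close together on the minus strand and encode chains of C1q, the part of complement that binds dying cells. C1qa stood at 72.3, 59.6, 25.2 and 24.0 CPM in wt mice 1 to 4, at 51.8, 41.3, 46.2 and 36.7 CPM in Zmat3-/- mice 1 to 4 and at 45.2, 63.3 and 16.7 CPM in TKO mice 1 to 3. C1qb stood at 67.6, 58.6, 21.8 and 21.3 CPM in the wt, at 54.2, 33.3, 41.5 and 35.8 CPM in the Zmat3-/- and at 43.0, 60.1 and 15.1 CPM in the TKO mice, in the same order. For both genes every Zmat3-/- mouse lay between the wt pairs, and the wt and TKO ranges overlapped those of the Zmat3-/- mice. Over the 11 mice C1qa and C1qb had the highest correlation of any pair of the 10 genes (Pearson r = 0.992, Spearman rho = 0.982, log2 CPM).

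Fcer1g (ENSMUSG00000058715.11, chr1:171229572-171234365, minus strand) and Tyrobp (ENSMUSG00000030579.10, chr7:30413760-30417585, plus strand) encode adaptors that pass the signal of activating Fc and lectin-like receptors to the kinase SYK. Fcer1g was counted at 18.6, 14.9, 6.95 and 9.17 CPM in wt mice 1 to 4, at 8.59 to 12.9 CPM in the Zmat3-/- mice and at 10.2, 11.5 and 4.94 CPM in the TKO mice. For Tyrobp the values were 24.6, 26.3, 10.2 and 8.98 CPM in wt mice 1 to 4, 12.6 to 19.3 CPM in Zmat3-/- mice and 15.1, 18.7 and 8.87 CPM in TKO mice. Both were highest in wt mice 1 and 2 and overlapped between all genotypes.

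Csf1r (ENSMUSG00000024621.16, chr18:61100598-61132149, plus strand), Adgre1 (ENSMUSG00000004730.15, chr17:57358691-57483527, plus strand) and Itgam (ENSMUSG00000030786.18, chr7:128062640-128118491, plus strand) encode surface proteins. CSF1R is the receptor of the growth factors CSF1 and IL34, ADGRE1 is the macrophage antigen F4/80, and ITGAM is CD11b, an integrin chain of macrophages, monocytes and neutrophils. Csf1r stood at 20.5, 21.8, 16.2 and 12.0 CPM in wt mice 1 to 4, at 19.3 to 24.3 CPM in Zmat3-/- and at 21.5, 28.6 and 11.5 CPM in TKO mice. Adgre1 had 8.81, 10.4, 7.63 and 5.95 CPM in wt mice 1 to 4, 14.0, 14.5, 12.9 and 12.0 CPM in Zmat3-/- mice 1 to 4 and 14.1, 15.5 and 7.76 CPM in TKO mice 1 to 3. All Zmat3-/- mice lay above all wt mice in Adgre1. Itgam went the other way from its companions, with 8.78, 8.66, 13.8 and 12.4 CPM in wt mice 1 to 4, 9.65 to 11.5 CPM in Zmat3-/- mice and 12.2, 8.12 and 15.8 CPM in TKO mice, so that its highest mouse, TKO mouse 3, was the lowest TKO mouse in the other 9 genes.

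Cd68 (ENSMUSG00000018774.13, chr11:69664213-69666153, minus strand), Lyz2 (ENSMUSG00000069516.8, chr10:117277331-117282321, minus strand) and Mpeg1 (ENSMUSG00000046805.10, chr19:12460779-12465283, plus strand) belong to the lysosome and phagosome. CD68 is a lysosomal membrane glycoprotein and MPEG1 a pore-forming protein of phagosomes. Cd68 stood at 18.2, 17.6, 12.2 and 9.21 CPM in wt mice 1 to 4, at 12.5 to 17.6 CPM in Zmat3-/- and at 15.8, 21.1 and 7.30 CPM in TKO mice. Lyz2 stood at 122, 158, 97.0 and 93.0 CPM in the wt, at 161, 112, 142 and 119 CPM in the Zmat3-/- and at 138, 190.5 and 69.7 CPM in the TKO mice. Mpeg1 differed from both: the wt mice lay close together at 45.5, 59.8, 48.9 and 49.2 CPM, and each of the Zmat3-/- mice, at 92.0, 71.1, 89.8 and 76.1 CPM, lay above them. TKO mice 1 and 2 (86.4 and 109 CPM) also lay above the wt mice, while TKO mouse 3 (53.0 CPM) lay among them.

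The promoters of 6 of the 10 genes were in the RefSeq promoter table of GRCm38.p6, which holds 250 bases before and 50 after each start. Shown are C1qb and Cd68, whose levels moved together, Itgam, which moved against them, and Mpeg1, which followed least. Capitals mark GAGGAA on either strand (TTCCTC on the minus strand), the core that the myeloid factor PU.1 (Spi1) is known to bind. The windows are chr4:136886151-136886450 (minus strand) for C1qb, chr11:69666121-69666420 (minus strand) for Cd68, chr7:128062390-128062689 (plus strand) for Itgam and chr19:12460520-12460819 (plus strand) for Mpeg1.
C1qb: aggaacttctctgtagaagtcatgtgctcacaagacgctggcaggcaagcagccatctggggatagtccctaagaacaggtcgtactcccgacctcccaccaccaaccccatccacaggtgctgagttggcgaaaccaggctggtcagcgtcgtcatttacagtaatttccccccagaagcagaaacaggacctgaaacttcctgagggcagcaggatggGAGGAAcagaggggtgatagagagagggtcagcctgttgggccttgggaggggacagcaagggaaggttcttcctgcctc
Cd68: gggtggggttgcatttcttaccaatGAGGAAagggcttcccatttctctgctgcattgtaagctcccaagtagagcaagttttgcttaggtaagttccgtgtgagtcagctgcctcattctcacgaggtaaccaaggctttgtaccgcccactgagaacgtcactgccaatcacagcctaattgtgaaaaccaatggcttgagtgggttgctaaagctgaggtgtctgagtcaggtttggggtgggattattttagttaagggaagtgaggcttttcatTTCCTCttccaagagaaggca
Itgam: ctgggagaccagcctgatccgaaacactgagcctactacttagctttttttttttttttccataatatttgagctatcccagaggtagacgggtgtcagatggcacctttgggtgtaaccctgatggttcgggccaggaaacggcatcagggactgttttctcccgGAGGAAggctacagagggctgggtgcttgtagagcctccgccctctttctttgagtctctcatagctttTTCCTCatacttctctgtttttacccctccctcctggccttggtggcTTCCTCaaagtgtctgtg
Mpeg1: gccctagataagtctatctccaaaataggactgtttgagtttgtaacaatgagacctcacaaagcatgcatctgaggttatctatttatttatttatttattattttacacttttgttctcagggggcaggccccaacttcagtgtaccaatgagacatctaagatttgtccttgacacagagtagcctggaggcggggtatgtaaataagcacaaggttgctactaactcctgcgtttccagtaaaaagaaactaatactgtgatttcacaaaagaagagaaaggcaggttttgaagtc
The window of Itgam held 3 matches, that of Cd68 2, that of C1qb 1, and those of Mpeg1, Lyz2 and Fcer1g held none. Of all 32851 promoters in the table, 28.28% held GAGGAA on either strand. The core of sites of C/EBP factors, searched as TTGCNNAA on both strands, occurred in 10.8% of all promoters and among the 6 in that of Cd68. A match is a description of these letters and not a bound site.

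In Zmat3-/- against wt mice, none of the 10 genes passed the study's thresholds for a differentially expressed gene, an adjusted p under 0.05 and an absolute log2 fold change (log2FC) above 1.5. They were applied here to edgeR fits with genotype alone, while the study used DESeq2 with sex and surrogate variables. Here these thresholds called 43 of 13494 tested genes, 0.319%. Mpeg1 and Adgre1 came closest. Mpeg1 had 82.3 ± 10.2 CPM in Zmat3-/- and 50.9 ± 6.22 CPM in wt mice (SD, n = 4 each), a log2FC of 0.70 (SE 0.126, adjusted p = 0.0528 from edgeR's quasi-likelihood test). Adgre1 had 13.4 ± 1.12 and 8.20 ± 1.88 CPM (SD, n = 4 each), a log2FC of 0.70 (SE 0.178, adjusted p = 0.115 from edgeR). Both had an unadjusted p = 0.0286 when log2 CPM were permuted over mice (exact permutation, two-sided), the smallest that 4 against 4 mice can give, in 39 such tests made. DESeq2 gave an adjusted p = 4.625e-05 for Mpeg1 and 0.00586 for Adgre1 at the same fold, in a comparison where it put 8.04% of all tested genes under 0.05. None of the 10 was called by DESeq2 either. Mpeg1 and Adgre1 were the 2 of the 10 with an unadjusted p under 0.05 in edgeR, which 16.1% of all tested genes had. They were also those whose genotypes did not overlap, and over all tested genes 7.04% lay higher without overlap.

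For the other 8 genes the log2FC lay within 2 SE of 0. Csf1r (log2FC 0.29, SE 0.188), Lyz2 (0.19, SE 0.195) and Cd68 (0.12, SE 0.226) were on the higher side. C1qb (−0.04, SE 0.397), C1qa (−0.04, SE 0.359), Itgam (−0.08, SE 0.182), Tyrobp (−0.13, SE 0.361) and Fcer1g (−0.24, SE 0.300) were on the lower side. Their adjusted p-values from edgeR were 0.475 to 0.965. The 10 genes had a median log2FC of 0.04, and all tested genes one of −0.03. The summed level of the 10 genes was 388 ± 55.3 CPM in Zmat3-/- and 337 ± 98.1 CPM in wt mice (SD, n = 4 each), with the wt values at 407, 435, 260 and 245 CPM and the Zmat3-/- values at 459, 343, 406 and 345 CPM.

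**Figure D2:**
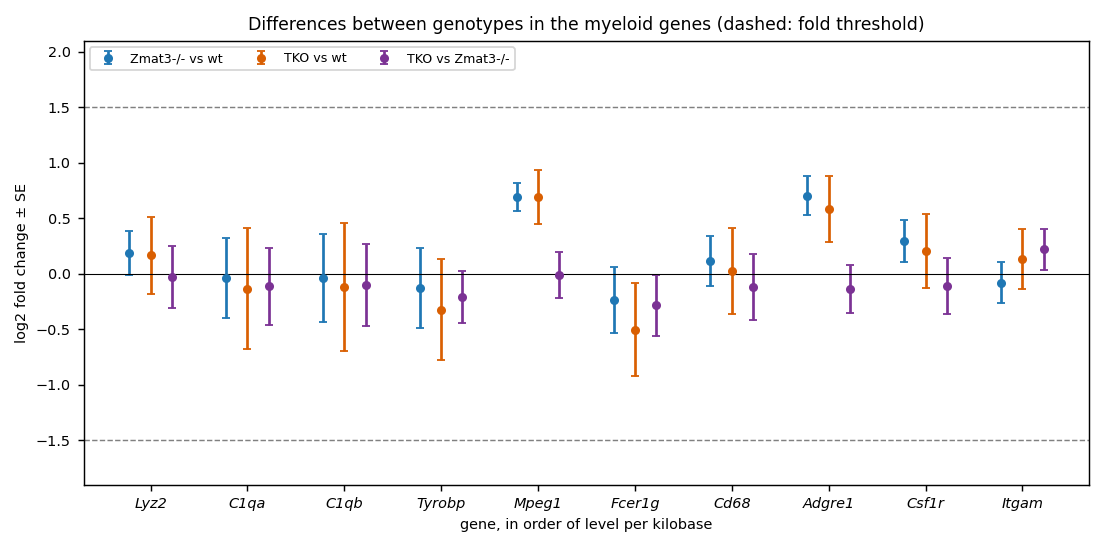
Log2 fold change ± SE (y axis) of the 10 myeloid genes (x axis, in order of level per kilobase) in the comparisons of Zmat3-/- with wt, TKO with wt and TKO with Zmat3-/- mice, where dashed lines mark 1.5 in either direction. Every value lies inside the dashed lines, and Mpeg1 and Adgre1 have the highest values in both comparisons with wt.

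In TKO against wt mice none of the 10 was called either, where 0.241% of 13260 tested genes were. Mpeg1 (82.8 ± 28.1 CPM in TKO, SD, n = 3) was again the highest, with a log2FC of 0.69 (SE 0.241, adjusted p = 0.427 from edgeR). It was the only gene of the 10 with an unadjusted p under 0.05, which 10.3% of all tested genes had. For Adgre1 the log2FC was 0.59 (SE 0.296, adjusted p = 0.535 from edgeR). Fcer1g (−0.50, SE 0.422) and Tyrobp (−0.32, SE 0.457) had the lowest log2FC, and those of the other 6 lay between −0.13 (C1qa) and 0.20 (Csf1r). DESeq2 called none of the 10 in this comparison. All 10 ranges overlapped between the genotypes. The median log2FC was 0.08 over the 10 genes and −0.04 over all tested genes. That of the 10 genes was 0.53 without wt mice 1 and 2 and −0.20 without wt mice 3 and 4. In the latter subset Tyrobp (adjusted p = 0.0306) and Fcer1g (adjusted p = 0.0445, edgeR) were lower, where 43.6% of all tested genes had an adjusted p under 0.05. The comparisons of Zmat3-/- and of TKO with wt mice use the same wt mice.

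The comparison of TKO with Zmat3-/- mice, which differ in Puma and p21, called none of the 10 and 0.122% of 13124 tested genes. None of the 10 had an unadjusted p under 0.05, against 4.5% of all tested genes, and DESeq2 called none of them. The log2FC was below 0 for 9 genes, from −0.29 (Fcer1g, SE 0.273) to −0.01 (Mpeg1, SE 0.208), and 0.22 (SE 0.186) for Itgam. In this comparison 52.7% of all tested genes had a log2FC below 0. The side on which the 9 genes lay rested on TKO mouse 3: without it all 10 had a log2FC above 0, as 51% of all tested genes did, with a median of 0.22 in place of −0.11, and still none was called. The summed level was 401, 526 and 210.5 CPM in TKO mice 1 to 3.

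The split among the wt mice was larger than the difference between any pair of genotypes in each of the 10 genes but Mpeg1 and Adgre1. The mean CPM of wt mice 1 and 2 was 2.92 times that of wt mice 3 and 4 for C1qb, 2.68 times for C1qa, 2.66 times for Tyrobp and 2.08 times for Fcer1g. The ratio was 1.67 for Cd68, 1.502 for Csf1r, 1.47 for Lyz2, 1.42 for Adgre1 and 1.07 for Mpeg1, and 0.664 for Itgam. This split ran with transcript length over the whole table. In 13487 genes the log2 ratio of the wt pairs had a Spearman rho of −0.470 with the length of the merged exons, across genes, which are not independent replicates. Its median was 0.73 in genes under 2000 bases, 0.23 in those of 2000 to 5000 bases and −0.40 in longer genes. C1qb, C1qa, Tyrobp and Fcer1g have 667 to 1088 bases and lay above the median of their class, as did Adgre1 with 3238 and Csf1r with 5774 bases. Itgam with 5024 bases, and Rag1, a recombinase of thymocytes with 6608 bases and a ratio of 0.365, lay below theirs, as did Lyz2 with 1316 and Mpeg1 with 4334 bases. The part of transcript length or RNA quality in the levels of the 10 genes was not tested.

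**Figure D3:**
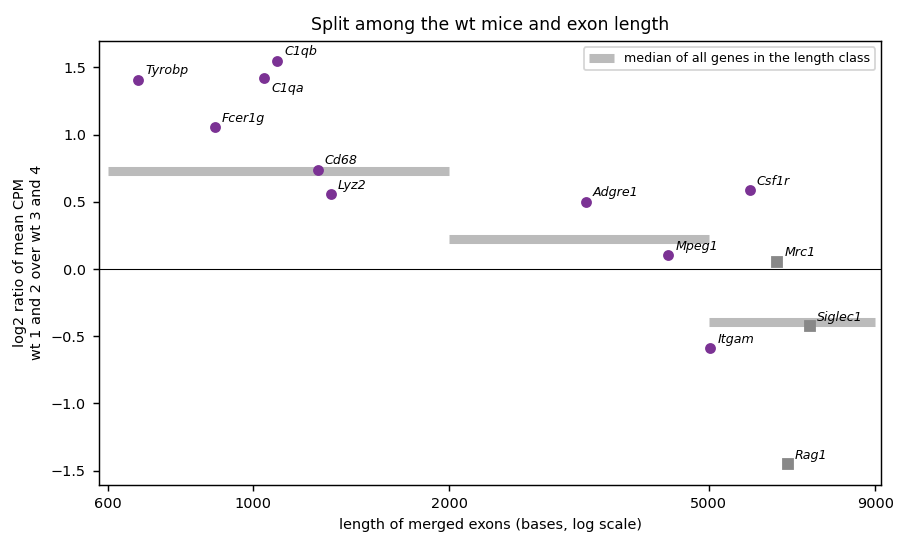
Log2 ratio of the mean CPM of wt mice 1 and 2 over that of wt mice 3 and 4 (y axis) against the length of the merged exons in bases (x axis, log scale), for the 10 myeloid genes (circles) and Mrc1, Siglec1 and Rag1 (squares), where grey bars are the medians of all genes in 3 length classes. Short genes lie high and long genes low, in the medians as in the 10 genes, with Csf1r above its class.

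Against which wt mice the Zmat3-/- mice were set therefore decided the direction of several genes. Without wt mice 1 and 2, 9 of the 10 had a log2FC above 0 (49.6% of all tested genes did) and 8 of them an adjusted p under 0.05 from edgeR, and their median was 0.68. C1qb then had a log2FC of 0.94 (SE 0.180), C1qa of 0.84 (SE 0.131) and Tyrobp of 0.75 (SE 0.166). Without wt mice 3 and 4 the same 3 genes were at −0.62 (SE 0.174), −0.59 (SE 0.136) and −0.67 (SE 0.151), 4 of the 10 had a log2FC above 0 (48.9% of all tested genes did) and the median was −0.14. Of the 10, 6 then had an adjusted p under 0.05 from edgeR, with Mpeg1 and Adgre1 higher and C1qa, C1qb, Tyrobp and Fcer1g lower. Mpeg1 and Adgre1 kept their direction. Mpeg1 had a log2FC of 0.75 (SE 0.107, adjusted p = 0.000838 from edgeR) against wt mice 3 and 4 and of 0.63 (SE 0.141, adjusted p = 0.00428) against wt mice 1 and 2. For Adgre1 the values were 0.98 (SE 0.146, adjusted p = 0.00102 from edgeR) and 0.46 (SE 0.135, adjusted p = 0.0159). These subsets hold 2 wt mice each and were chosen after seeing the data. At an adjusted p under 0.05 they passed 33% of all tested genes against wt mice 3 and 4 and 56.1% against wt mice 1 and 2, so that a share of the 10 genes is to be read against those.

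**Figure D4:**
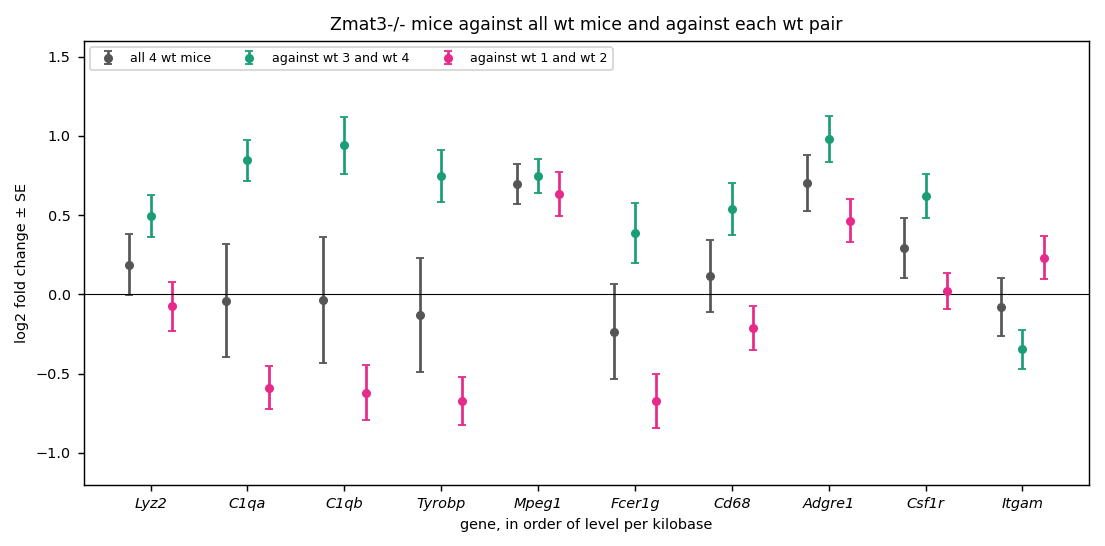
Log2 fold change ± SE (y axis) of the 10 myeloid genes (x axis) in the 4 Zmat3-/- mice against all 4 wt mice, against wt mice 3 and 4 and against wt mice 1 and 2. The values of C1qa, C1qb, Tyrobp, Fcer1g, Cd68 and Lyz2 lie above 0 against wt mice 3 and 4 and below 0 against wt mice 1 and 2, while those of Mpeg1 and Adgre1 lie above 0 against both.

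The split coincided with the Xist level. Among mice with a low Xist level alone (wt 3 and 4, Zmat3-/- 3 and 4), the 10 genes had a median log2FC of 0.60 in Zmat3-/- against wt mice, and among mice with a high level (wt 1 and 2, Zmat3-/- 1 and 2) one of −0.05. Mpeg1 had a log2FC of 0.76 (SE 0.0859) in the first and 0.64 (SE 0.171) in the second, and Adgre1 of 0.88 (SE 0.166) and 0.57 (SE 0.154). The direction of Mpeg1 and Adgre1 was fixed here too, since their genotypes did not overlap. Zmat3-/- mice 1 and 2 were not apart from Zmat3-/- mice 3 and 4 in the way the wt mice were.

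Across the 11 mice, 9 of the genes were positively correlated with the mean of the others, to different degrees. The correlation of log2 CPM with the mean of the other 9 genes was the highest for Cd68 (Pearson r = 0.960, Spearman rho = 0.945), C1qb (r = 0.955, rho = 0.927) and C1qa (r = 0.951, rho = 0.927), lower for Adgre1 (r = 0.724, rho = 0.655) and Mpeg1 (r = 0.556, rho = 0.445), and negative for Itgam (r = −0.839, rho = −0.791). Without TKO mouse 3 and wt mouse 4, the mice farthest from the median, r was 0.899 for Cd68, 0.361 for Mpeg1 and −0.719 for Itgam. The mice share genotype and the wt split, so these values are descriptions. Itgam shares 67.2% of its 31-base words with the overlapping gene model Gm49368 on the same strand, which had at most 10 counts. Lyz2 shares 32.8% with its neighbour Lyz1, a lysozyme of the gut, which had 34 to 120 counts, and the exons of Csf1r overlap those of Hmgxb3 on the other strand over 873 bases. The levels of these 3 genes are uncertain to that extent.

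Of 13260 genes, the 5 whose log2 CPM over the 11 mice was most like the mean of the 10 were Zmynd15 (r = 0.985, rho = 0.955), C1qc (r = 0.982, rho = 0.936), the third chain of C1q, Ms4a7 (r = 0.980, rho = 0.955), a membrane protein of macrophages, Lgmn (r = 0.980, rho = 0.927), a lysosomal protease, and Bcl2a1a (r = 0.973, rho = 0.945), an inhibitor of apoptosis with near-identical copies that can share its reads. Without the 2 mice farthest from the median, their r was 0.953 to 0.965. C1qc stood at 61.5, 55.5, 27.9 and 23.5 CPM in wt mice 1 to 4, with the same split as C1qa and C1qb.

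Further genes of the phagocyte programme were read from 5 lists of 60 genes in all. In Zmat3-/- against wt mice, 55 were tested, 38 had a log2FC above 0, 14 an unadjusted p under 0.05 and a higher level, and none an unadjusted p under 0.05 and a lower level. Over all tested genes these shares were 46.8%, 7.18% and 8.92%. Against wt mice 1 and 2 alone 26 of 56 had a log2FC above 0, and against wt mice 3 and 4 alone 51 of 56. At an unadjusted p under 0.05, 17 were higher and 13 lower against wt mice 1 and 2 alone (8726 of 14204 over all genes). Against wt mice 3 and 4 alone, 33 were higher and 2 lower (6288 of 14107 over all genes). The thymocyte list went the other way against all 4 wt mice, with 9 of 12 genes below 0 (53.2% of all tested genes). Of these, 3 had an unadjusted p under 0.05, none an adjusted p under 0.05 from edgeR and 3 one from DESeq2. Siglec1, a sialic acid binding receptor of resident macrophages, was called and rose from 0.936, 0.856, 1.31 and 1.10 CPM in wt mice 1 to 4 to 3.93, 3.05, 2.94 and 3.48 CPM in Zmat3-/- mice 1 to 4 (log2FC 1.68, SE 0.221, adjusted p = 0.0191 from edgeR). Siglec1 had only 28 to 167 counts in the 11 mice, near the filter of 20 counts. Its genotypes did not overlap, and its log2FC was 1.48 against wt mice 3 and 4 and 1.89 against wt mice 1 and 2. Its call was lost without wt mouse 2, wt mouse 4 or any of the Zmat3-/- mice, with adjusted p-values from edgeR up to 0.0973 at a log2FC of 1.59 or more. It was also lost with the replicate block (log2FC 1.68, adjusted p = 0.151 from edgeR), and against wt mice 3 and 4 alone and among mice with a low Xist level, where the log2FC of 1.48 and 1.41 lay under the fold threshold. Mrc1, the mannose receptor CD206, rose from 8.15, 11.1, 9.06 and 9.45 CPM to 20.4, 16.5, 14.5 and 16.6 CPM with an adjusted p = 0.0454 from edgeR (log2FC 0.85, SE 0.147), which is under the fold threshold. Without any 1 mouse its adjusted p was 0.0690 to 0.155, and with the replicate block it was 0.191 (edgeR). It was also above 0.05 with no filter on low counts, with a filter of 5 counts and with all genotypes in 1 fit. Whatever the fold, 0.763% of all tested genes had an adjusted p under 0.05 in this comparison.

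The TKO mice 1 and 2 were as high as the Zmat3-/- mice in these 2 genes and TKO mouse 3 was not. Siglec1 stood at 4.09, 3.02 and 1.503 CPM in TKO mice 1 to 3 (log2FC 1.44 against wt, SE 0.397, adjusted p = 0.314 from edgeR), and each TKO mouse lay above each wt mouse. Over all tested genes, 6.78% lay higher without overlap. Mrc1 stood at 17.9, 20.2 and 7.19 CPM (log2FC 0.67, SE 0.341, adjusted p = 0.539 from edgeR), and its lowest TKO mouse lay below all wt mice. In this comparison 35 of the 53 tested genes of the 5 lists had a log2FC above 0, as 45.8% of all tested genes did, and none had an adjusted p under 0.05 from edgeR, against 4 at an unadjusted p under 0.05 and 1 by DESeq2 (Siglec1). Over all tested genes, 0.294% had an adjusted p under 0.05 from edgeR and 2.87% from DESeq2 in TKO against wt mice. Without TKO mouse 3 the count above 0 was 45 of 55. It was 42 of 52 against wt mice 3 and 4 alone and 22 of 55 against wt mice 1 and 2 alone, where 50.7% and 47.8% of all tested genes lay above 0.

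**Figure D5:**
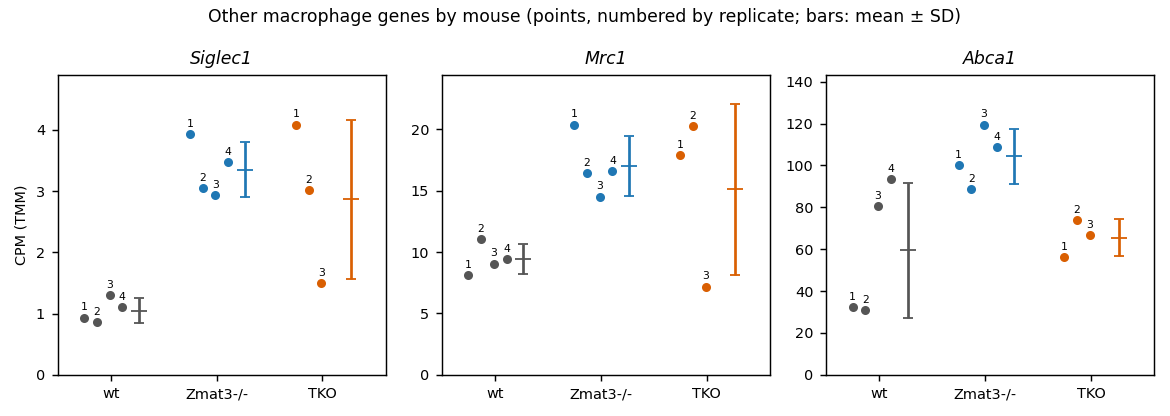
Levels in CPM (y axis, from 0, a scale for each gene) of Siglec1, Mrc1 and Abca1 in wt, Zmat3-/- and TKO mice, where each point is a mouse numbered by replicate and the bar is the mean ± SD of the genotype. In the panels of Siglec1 and Mrc1 all Zmat3-/- mice lie above all wt mice and TKO mouse 3 is the lowest TKO mouse, and in that of Abca1 all TKO mice lie below all Zmat3-/- mice.

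Among the growth and transcription factors of the lineage, 6 of 8 genes had a log2FC above 0 in Zmat3-/- against wt mice and none passed the adjusted threshold with edgeR, against 2 at an unadjusted p under 0.05 and 2 past the adjusted threshold by DESeq2, which 8.04% of all tested genes passed. Against wt mice 3 and 4 alone 7 of the 8 lay above 0 and against wt mice 1 and 2 alone 4. Irf8, a factor of monocytes and dendritic cells, had 47.7, 57.5, 22.04 and 31.2 CPM in wt and 43.9 to 68.5 CPM in Zmat3-/- mice (log2FC 0.44, SE 0.296). Of a list of phagocyte receptor and signalling genes, 7 of 10 were tested and 4 had a log2FC above 0. Clec7a, the beta-glucan receptor Dectin-1, was at 1.00 (SE 0.367, adjusted p = 0.237 from edgeR) and the kinase gene Syk at 0.25 (SE 0.148). Of the list of lysosomal proteases and lysozyme, 5 of 9 genes had a log2FC above 0, with Ctsd at −0.09 (SE 0.201) and Ctsb at 0.05 (SE 0.145). That count was 9 of 9 against wt mice 3 and 4 alone and 2 of 9 against wt mice 1 and 2 alone. The count of the receptor and signalling list was 6 of 7 and 3 of 7.

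In the list for the clearance of apoptotic cells and complement, 14 of 17 genes had a log2FC above 0 in Zmat3-/- against wt mice, and none passed the adjusted threshold with edgeR, against 5 at an unadjusted p under 0.05 and 2 by DESeq2 (Axl and Itgb5), a share of the list near the 8.04% over all tested genes. The count above 0 was 16 of 17 against wt mice 3 and 4 alone and 10 of 17 against wt mice 1 and 2 alone. Against the Zmat3-/- mice, the TKO mice had 14 of 16 tested genes below 0, where 52.7% of all tested genes were, and without TKO mouse 3 they had 4 of 17. Over the 5 lists, 12 of 53 tested genes lay above 0 in this comparison and 44 of 54 without TKO mouse 3. Abca1, which exports cholesterol from loaded phagocytes and is also expressed by other cells, fell by 0.69 on the log2 scale (SE 0.113, adjusted p = 0.0467 from edgeR, a rule that 0.221% of tested genes met). It stood at 100.1, 88.8, 119.5 and 109 CPM in Zmat3-/- mice 1 to 4 and at 56.1, 73.7 and 66.6 CPM in TKO mice 1 to 3, without overlap. Over all tested genes, 2.44% lay lower without overlap. The adjusted p of Abca1 was above 0.05 without Zmat3-/- mouse 1, 3 or 4 or TKO mouse 1 or 3 (up to 0.192, edgeR). It was also above 0.05 with RLE factors (0.0537), the replicate block (0.274), all genotypes in 1 fit and among mice with a low Xist level. Its log2FC was −0.78 to −0.61 over these and the other settings tried. In wt mice it stood at 32.3, 31.01, 80.7 and 93.5 CPM, the reverse of the split in C1qa and C1qb.

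Markers of other cells moved with the same mice. The 5 MHC class II genes, which macrophages share with dendritic cells, B cells and thymic epithelium, summed to 1190 and 1203 CPM in wt mice 1 and 2, to 514 and 659 CPM in wt mice 3 and 4 and to 504 CPM in TKO mouse 3. The 10 thymic epithelium genes summed to 234, 232, 94.0 and 151 CPM in wt mice 1 to 4 and to 72.3 CPM in TKO mouse 3, and the 10 dendritic cell genes to 73.9, 82.9, 40.0 and 51.3 CPM and to 43.6 CPM. No gene of these 3 lists passed the adjusted threshold with edgeR in any comparison. An unadjusted p under 0.05 was found for 1 dendritic cell gene and 2 thymic epithelium genes in Zmat3-/- against wt mice and for 1 thymic epithelium gene in TKO against wt mice. DESeq2 put 1 gene, in Zmat3-/- against wt mice, past the adjusted threshold, the chemokine gene Ccl25 of the thymic epithelium list. The neutrophil list of 15 genes, which bears on Lyz2 and Itgam, summed to 21.1 to 47.7 CPM in wt, 15.7 to 38.4 CPM in Zmat3-/- and 8.29 to 38.4 CPM in TKO mice, and its gene Ly6g was at 0 to 0.251 CPM. Of the neutrophil genes, 7 were tested in Zmat3-/- against wt mice and all had a log2FC below 0, which 3 of 7 had against wt mice 3 and 4 alone and 9 of 10 against wt mice 1 and 2 alone. The part of these cells in the levels of the 10 genes was not tested.

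Genes of the immediate-early response, which handling of cells can induce and which macrophages also express, had a higher sum in every mutant mouse than in any wt mouse. Of 14, 4 passed the adjusted threshold upwards in both comparisons with wt: Fosb, Dusp1, Nr4a1 and Klf4, with a log2FC of 1.13 (Nr4a1) to 3.73 (Fosb) in Zmat3-/- and of 1.15 to 3.84 in TKO against wt mice. Another 3, Egr1, Egr2 and Btg2, were lower at an unadjusted p under 0.05 in both comparisons (log2FC −0.67 to −0.32), without passing the adjusted threshold with edgeR. DESeq2 put 10 of the 14 past it in Zmat3-/- and 8 in TKO against wt mice (8.04% and 2.87% of all tested genes), Egr2 and Btg2 among them in both and Egr1 in the first. With edgeR the upward count of 4 fell to 2 without Zmat3-/- mouse 1, 2 or 4, and in TKO against wt mice to 2 without wt mouse 2, 3 or 4 or TKO mouse 2, to 1 without TKO mouse 3 and to 0 without TKO mouse 1. Against wt mice 3 and 4 alone it was 10 in both comparisons, where 16.8% of all tested genes in Zmat3-/- and 2.96% in TKO mice were higher at an adjusted p under 0.05. Against wt mice 1 and 2 alone it was 7 in both, where 27.4% and 22% of all tested genes were. The list summed to 847 to 1332 CPM in wt, 1716 to 2084 CPM in Zmat3-/- and 1785 to 2080 CPM in TKO mice, and TKO mouse 3 with its low levels of the myeloid genes stood at 1924 CPM. The stromal list of fibroblast and endothelial genes had 8 of 9 tested genes above 0 in Zmat3-/- against wt mice, none past the adjusted threshold with edgeR, 4 at an unadjusted p under 0.05 and 2 past the adjusted threshold by DESeq2 (Col1a2 and Col3a1). Of 10 tested, 9 lay above 0 against wt mice 3 and 4 alone and 8 against wt mice 1 and 2 alone. The list summed to 150.5 to 166 CPM in wt and 158 to 179 CPM in Zmat3-/- mice. Most of that sum was Pecam1, the tested gene below 0, with a mean of 128.0 CPM in wt and 117.5 CPM in Zmat3-/- mice. The mean of Col3a1 was 3.33 and 8.25 CPM and that of Col1a2 2.09 and 5.12 CPM, so the sum says little about the fibroblast genes. The part of the immediate-early and stromal lists in the levels of Siglec1 and Mrc1 was not tested.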

How the data were processed

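RNA-seq of thymus cells from 4 wt, 4 Zmat3-/- and 3 TKO mice was used. Per the study's methods, the authors ran the nf-core/rnaseq pipeline and its Salmon option on paired reads (2 × 116 cycles), with GRCm38.p6 with GENCODE vM25, and deposited the estimated counts per gene, which are whole numbers without normalization. The sample labels gave the genotype and the replicate number, and the 10 genes, the other lists and the tests were chosen with earlier results of these data known. Identifiers were matched to GENCODE M21 (54166 of 54418), which gave names, positions and exon lengths.

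Genotypes were compared in pairs with edgeR 4.0.16 (R 4.3.3, limma 3.58.1), with TMM factors, the quasi-likelihood F-test and Benjamini-Hochberg adjustment over all tested genes. The SE was computed as |log2FC|/√F. As in the study, a gene needed 20 counts, scaled to the shallowest library, in a number of mice equal to the smaller group, the fit excluded Xist, chromosome Y, rRNA and immunoglobulin pseudogenes, and a call needed an adjusted p under 0.05 and an absolute log2FC above 1.5. CPM used TMM factors over all 11 mice, and log2 CPM for correlations and permutation tests a prior count of 2. The tests were tried on simulated counts. Since the labels give no sex, the study's sex term was replaced by the Xist level, among the alternatives, which also were DESeq2 1.42.0, RLE factors, other filters, all genotypes in 1 fit, the replicate block, 1 surrogate variable (sva 3.50.0), any fold, and each mouse left out. Subsets without wt mice 1 and 2 or 3 and 4, subsets by Xist level and the sum without Lyz2 were added after seeing the data. Genes to name were taken from the 10 genes, the targeted genes, of each other list the genes with an adjusted p under 0.05 or else among its 2 highest, and the 5 genes most like the 10. Not every gene that this rule takes in is named, and most other lists are given by their sums and counts. One result that this rule takes in is not reported here. Spi1, Ly6g, the genes named for an adjusted p by DESeq2 alone and the genes that share sequence with the 10 fall outside this rule. Each mouse is 1 sample, with 17669715 to 80207003 counts. Intergenotype p-values measure the spread between these mice.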

Additional observations from a re-analysis of the deposited data

Results flagged for a closer look

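In groups of 4 mice, 3 of 62 group values had a mouse far from the other 3, which chance gives in about 1 of 20 groups. All 3 were Zmat3-/- mouse 1 and the highest of its genotype. Its summed level was 142 CPM in the list of phagocyte receptor and signalling genes, against 109 to 114 CPM in the other Zmat3-/- mice. In the MHC class II list it stood at 988 CPM against 807 to 826 CPM, and in the thymic epithelium list at 190 CPM against 138 to 143 CPM. In the 10 myeloid genes this mouse had the highest sum of its genotype as well (459 CPM), without standing as far apart.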

How the results depend on the processing

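None of the 10 genes was called in any comparison under any alternative or with any mouse left out, and the count at an adjusted p under 0.05 reached 8 in Zmat3-/- against wt mice without wt mice 1 and 2, a subset chosen after seeing the data in which 33% of all tested genes passed. With 1 surrogate variable that count was 4, all higher, where 5086 of 13494 tested genes passed. Of 55 tested genes of the 5 macrophage lists, 29 then passed as higher and 2 as lower. Over all genes the alternatives called 15 to 672 in TKO against wt mice, 8 to 733 in Zmat3-/- against wt mice and 12 to 45 in TKO against Zmat3-/- mice, where the test as reported called 32, 43 and 16. The median log2FC of the 10 genes moved past the spread between mice without wt mice 1 and 2, to 0.53 in TKO and 0.68 in Zmat3-/- against wt mice, and to 0.60 in Zmat3-/- against wt mice among those with a low Xist level. With 1 mouse left out it ranged from −0.26 to 0.32 in TKO against wt, from −0.039 to 0.26 in Zmat3-/- against wt and from −0.42 to 0.22 in TKO against Zmat3-/- mice. The summed level ranged over 304 to 367 CPM in wt, 365 to 403 CPM in Zmat3-/- and 306 to 464 CPM in TKO mice with 1 mouse left out, and without Lyz2 it was 219 CPM in wt and 255 CPM in Zmat3-/- mice.

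Of the 5 macrophage lists, the test as reported called 1 gene, Siglec1, in Zmat3-/- against wt mice. That count was 0 to 1 with 1 mouse left out, 0 with the replicate block, 2 at any fold, 5 without wt mice 1 and 2, 2 without wt mice 3 and 4, 2 among mice with a low and 3 among those with a high Xist level, of 56, 56, 53 and 56 tested, where 3.13%, 5.16%, 2.64% and 4.26% of all tested genes were called. It was 1 in place of 0 in TKO against wt mice without wt mice 3 and 4, and 1 in place of 0 in TKO against Zmat3-/- mice at any fold. The causes were not tested. Deviations of same-numbered mice had correlations of 0.0706 to 0.386 in TKO against wt and 0.0857 to 0.324 in Zmat3-/- against wt mice. In TKO against Zmat3-/- mice these were −0.00293 to 0.165. Mice of different numbers were not compared, so whether the replicate numbers pair the mice was not tested. With the replicate block, Siglec1 kept a log2FC of 1.68 in Zmat3-/- against wt mice with an adjusted p = 0.151 from edgeR, and Mpeg1 one of 0.70 with an adjusted p = 0.214. Mrc1 (log2FC 0.85) then had an adjusted p = 0.191, and Abca1 in TKO against Zmat3-/- mice (log2FC −0.67) one of 0.274.

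The directions of many single genes that did not pass the test were not stable. Among those that kept their sign in every setting were Mpeg1, Adgre1 and Mrc1 in both comparisons with wt mice. Csf1r also did in Zmat3-/- against wt mice, and Siglec1 in TKO against wt mice. Under the replicate block, the log2FC changed sign in TKO against wt mice (Lyz2 −0.0207, Csf1r −0.0231, Cd68 −0.24) and in Zmat3-/- against wt mice (Tyrobp 0.0126, C1qa 0.12, C1qb 0.13). With the Xist level as a term, the log2FC changed sign in TKO against wt mice (C1qa 0.19, C1qb 0.24) and in Zmat3-/- against wt mice (Tyrobp 0.00223, C1qa 0.10, C1qb 0.13). With 1 surrogate variable, the log2FC changed sign in TKO against wt mice (Tyrobp 0.058, C1qa 0.24, C1qb 0.30) and in Zmat3-/- against wt mice (Tyrobp 0.16, C1qa 0.27, C1qb 0.31) and in TKO against Zmat3-/- mice (Lyz2 0.16, Csf1r 0.0766, Adgre1 0.034, Cd68 0.0897, C1qa 0.0961, C1qb 0.13, Mpeg1 0.14, Mrc1 0.0161). Without wt mice 1 and 2, the log2FC changed sign in TKO against wt mice (Itgam −0.12, Fcer1g 0.11, Tyrobp 0.55, C1qa 0.74, C1qb 0.85, Abca1 −0.43) and in Zmat3-/- against wt mice (Fcer1g 0.39, Tyrobp 0.75, C1qa 0.84, C1qb 0.94). Without wt mice 3 and 4, the log2FC changed sign in TKO against wt mice (Lyz2 −0.0907, Csf1r −0.0705, Cd68 −0.31) and in Zmat3-/- against wt mice (Lyz2 −0.0754, Itgam 0.23, Cd68 −0.21). Among mice with a low Xist level, the log2FC changed sign in TKO against wt mice (Itgam −0.14, Tyrobp 0.49, C1qa 0.67, C1qb 0.76, Abca1 −0.33) and in Zmat3-/- against wt mice (Fcer1g 0.19, Tyrobp 0.61, C1qa 0.76, C1qb 0.84). Among mice with a high Xist level, the log2FC changed sign in Zmat3-/- against wt mice (Lyz2 −0.0279, Itgam 0.29, Cd68 −0.0786). With 1 mouse left out, the log2FC of genes whose sign changed ranged in TKO against wt mice (Lyz2 −0.19 to 0.48, Itgam −0.0967 to 0.34, Csf1r −0.11 to 0.50, Cd68 −0.32 to 0.36, C1qa −0.56 to 0.25, C1qb −0.56 to 0.28, Abca1 −0.0865 to 0.44), in Zmat3-/- against wt mice (Itgam −0.18 to 0.053, Cd68 −0.0434 to 0.25, Fcer1g −0.43 to 0.0218, Tyrobp −0.35 to 0.12, C1qa −0.25 to 0.28, C1qb −0.26 to 0.28) and in TKO against Zmat3-/- mice (Lyz2 −0.37 to 0.30, Csf1r −0.41 to 0.21, Adgre1 −0.31 to 0.15, Cd68 −0.45 to 0.24, Fcer1g −0.50 to 0.0385, Tyrobp −0.44 to 0.0676, C1qa −0.53 to 0.29, C1qb −0.52 to 0.31, Mpeg1 −0.25 to 0.25, Siglec1 −0.65 to 0.10, Mrc1 −0.46 to 0.16).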

Other observations

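The lists of natural killer and cytotoxic cells, B cells, mast cells and globin and platelet genes had no gene past the adjusted threshold in any comparison with edgeR or DESeq2. In Zmat3-/- against wt mice, 3 genes of the natural killer list and 1 of the globin and platelet list had an unadjusted p under 0.05 with edgeR, as had 1 of the latter in TKO against wt mice. The 9 genes of natural killer and cytotoxic cells summed to 157 and 123 CPM in wt mice 1 and 2 and to 73.3 to 87.9 CPM in the other 9 mice, and 7 of 8 tested had a log2FC below 0 in Zmat3-/- against wt mice (4 of 8 against wt mice 3 and 4 alone). The 9 B cell genes summed to 109, 138, 67.4 and 80.2 CPM in wt mice 1 to 4 and to 58.3 CPM in TKO mouse 3. Mast cell and basophil genes were near the floor, with 2.34 to 5.65 CPM over 5 genes.

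Cytokines and chemokines of activated myeloid cells were low, with a sum of 7.40 to 17.6 CPM over 10 genes and 4 of them tested in the comparisons with wt. The highest were Tnf and Cxcl10. The globins, which mark red blood cells in the suspension, did not follow the myeloid genes: they summed to 1064, 859, 8595 and 2198 CPM in wt mice 1 to 4, to 1136 to 5674 CPM in Zmat3-/- and to 2671 to 3682 CPM in TKO mice, with the highest value in a wt mouse that was low in C1qa and C1qb.

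The transcription factor gene Spi1, which encodes PU.1, stood at 18.8, 20.2, 6.20 and 6.58 CPM in wt mice 1 to 4 and at 15.8, 20.8 and 6.94 CPM in TKO mice 1 to 3, the same split as in C1qa and C1qb. Its Zmat3-/- values were 11.9 to 21.6 CPM.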
